A study of Bos taurus with 47 samples.

Results

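Cells derived from bovine blastocysts made by somatic cell nuclear transfer (scNT) were compared with the scNT blastocysts themselves, gene by gene, in 4 mRNA sequencing libraries of each. The genes compared were those with a value of 10 or more normalized reads in at least 4 of these 8 libraries. They numbered 12786 of the 20526 genes listed. All 8 libraries reached 10 for 10194 of them. For 586 it was the 4 derived-cell libraries and no blastocyst library, and for 563 the 4 blastocyst libraries and no derived-cell library. At the threshold, the fourth-highest value of a gene was 10.1 just inside and 9.9 just outside, and 458 of the 7740 genes left out were listed at 0 in all 8 libraries. The derived cells and the blastocysts share the same origin. Each embryo was an enucleated oocyte given the nucleus of a cultured ear fibroblast from a Brahma Spanish cross bull, taken at passage 4 to 5 after serum starvation. Embryos were cultured with cumulus cells, and blastocysts were collected on day 8 as pools of 20. The sources used here do not give how the derived cells were grown, for how long or from how many embryos. The same 2 stages after in vitro fertilization (IVF), with semen of a Holstein bull, had 4 libraries each and served as an independent series of the same step. MII oocytes, 2-cell and 8-cell embryos, morulae and fibroblasts were used to describe the genes that differed.

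A blastocyst is a fluid-filled embryo with an outer trophectoderm, which forms fetal parts of the placenta, and an inner cell mass, which forms the embryo proper and the hypoblast. In nuclear transfer, oocyte factors act on a somatic nucleus, and the expression program of the donor cell has to give way to that of an embryo. When a blastocyst attaches in culture, cells grow out of it and change as they leave the embryo's architecture. The table lists each gene by its Ensembl identifier alone, with no gene name. Of these identifiers, 0 matched the gene reference at hand. Known markers of trophectoderm, inner cell mass, fibroblasts or cumulus cells were therefore not looked up. The cell types behind the label of the derived cells were not checked. Instead, genes were described by their levels in the other libraries.

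The derived-cell libraries held 7590056 to 10318674 recovered reads and the scNT blastocyst libraries 6340918 to 8402703. A value of 10 or more was reached by 12116 to 12257 genes in the derived cells and by 11881 to 12562 genes in the blastocysts. Within the derived cells the libraries correlated at r = 0.958 to 0.980 across genes on the log2 scale, and within the blastocysts at r = 0.957 to 0.976. No replicate pair agreed within sampling noise. Per degree of freedom, chi-square was at least 11.7 between derived-cell libraries and at least 18.1 between blastocyst libraries. The median SD of a gene's log2 level was 0.28 among derived-cell libraries and 0.24 among blastocyst libraries. A first principal component with 86.7% of the variance separated the groups, at 109.4 to 119.4 for derived cells and -119.8 to -112.7 for blastocysts. The second held 3.29%. The labels do not say whether replicates came from different animals or cultures. The p-values below thus reflect the spread among these libraries alone, and that spread may be technical.

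The derived cells differed from the blastocysts in most genes, in both directions. Of the 12786 genes tested, 8571 (67.0%) were called, that is, had an adjusted p under 0.05 (Benjamini-Hochberg) with limma on log2(value + 1). Of these, 4207 (32.9% of those tested) were higher in derived cells with a median log2 fold change of 1.49, and 4364 (34.1%) were lower with a median of -1.13. The other 4215 genes were not called, and 3778 of them lay within 1.5-fold. The libraries of the groups did not overlap for 7894 genes (61.7%), of which 3880 were higher (30.3%) and 4014 lower (31.4%) in derived cells. In bulk RNA, fewer cells of a type and less RNA per cell cannot be told apart.

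With the filter used here, large differences were more frequent among the higher genes. A difference of at least 2-fold was reached by 2866 higher and 2442 lower genes. At least 4-fold was reached by 1594 higher genes (12.5% of those tested) and 1219 lower genes (9.53%). At least 32-fold was reached by 286 higher and 219 lower genes, and at least 256-fold by 33 higher and 22 lower genes. The split between the directions depends on the filter and on scaling. With no filter, 1918 higher and 1868 lower genes were called and at least 4-fold apart. With equal library totals in place of the deposited scaling, 5315 genes were called higher and 3193 lower, as the median log2 fold change of all genes moved from -0.03 to 0.25. The share of higher genes among those called was then 62.5%, against 49.1%.

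**Figure D1:**
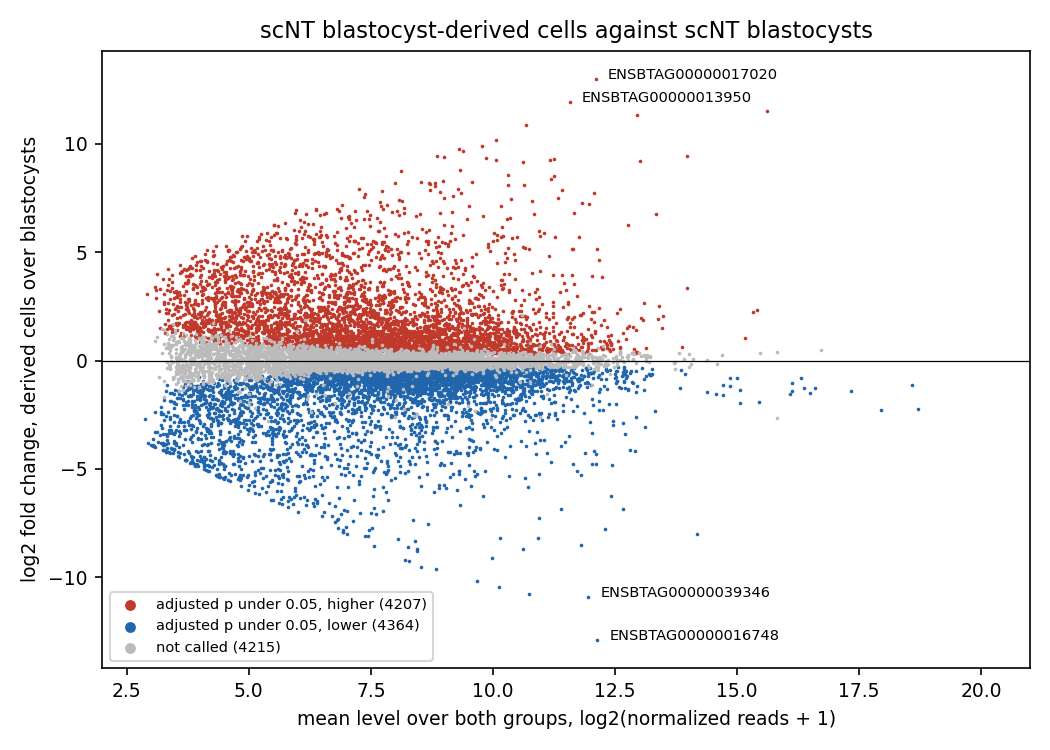
Log2 fold change of each of the 12786 genes in scNT blastocyst-derived cells over scNT blastocysts (y axis) against its mean level over both groups, log2(normalized reads + 1) (x axis). Red points are the 4207 genes called higher in derived cells, blue points the 4364 called lower and grey points the 4215 not called; the 4 labelled genes are described in the text, and of the 197 genes with a mean of 5000 or more, 87 were lower and 50 higher.

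The change was frequent at every level of expression. Of 2745 genes with a mean under 50 normalized reads, 63.9% were called. The share was 66.9% of 6553 genes between 50 and 500, 69.8% of 3291 genes between 500 and 5000 and 69.5% of 197 genes at 5000 or more. Among those 197 most abundant genes, 50 were higher and 87 lower in derived cells. The median absolute log2 fold change of the called genes was 2.42 in the lowest class and 1.17, 0.92 and 1.11 in the classes above it. No order is read from these sizes, since low genes need a larger change to be called and part of them passed the filter through 1 group alone.

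Blastocyst mRNA was dominated by few genes, and derived-cell mRNA less so. The 10 most abundant genes of each library held 11.5% to 13.9% of the reads in derived cells and 22.5% to 31.5% in blastocysts. The groups did not overlap, and the exact permutation test over libraries gave p = 0.0286 (two-sided, n = 4 each), the smallest p that 4 against 4 allows. The 100 most abundant held 27.9% to 30.4% in derived cells and 39.5% to 45.6% in blastocysts. Of the 10 genes with the highest mean in blastocysts, 9 were called lower in derived cells and 1 was not called, with a median log2 fold change of -1.45 over the 10. Over all genes tested 34.1% were called lower, but genes picked for high values in blastocysts are likely to be lower elsewhere, so that these counts are a description. Together they made up 6.95% to 11.8% of the derived-cell libraries and 22.2% to 30.2% of the blastocyst libraries. Of the 10 genes with the highest mean in derived cells, 4 were also among those of the blastocysts, 3 were called higher and 5 lower. The shares of a library sum to the whole, so that a fall in a few abundant genes raises the share of all others.

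The genes that differed at least 4-fold also made up unequal parts of the libraries. The 1594 higher genes held 15.0% to 16.4% of the reads in derived cells and 1.06% to 1.47% in blastocysts. The 1219 lower genes held 2.58% to 5.36% in derived cells and 15.9% to 22.0% in blastocysts. These shares describe genes chosen on the same libraries and carry no test.

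A further set of genes had reads in 1 of the 2 groups and almost none in the other. In 297 genes every derived-cell library had a value of 10 or more and every blastocyst library had 3 reads or fewer, and 18 of them had no read in any blastocyst library. In 286 genes the pattern was the other way, and 75 of them had no read in any derived-cell library. Most were expressed at low levels, with a median of 50.5 normalized reads in derived cells for the 297 genes and 39.7 in blastocysts for the 286. The other genes of both sets had 1 to 3 reads in at least 1 library of the group with few reads, and were thus detected there. For the 18 and 75 genes with no read, a count of 0 in a library allows up to 3 reads, so that their transcripts were not detectable at this depth and not shown to be absent.

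The levels of both sets in the other groups are given as a description, with no test of a difference between them. Of all genes tested, 83.9% had a mean of 10 or more in oocytes, 92.3% in scNT morulae and 88.3% in fibroblasts. Of the 297 genes read in derived cells, 94 had a mean of 10 or more in oocytes, 59 in scNT morulae and 146 in fibroblasts. Of the same 297 genes, 159 had a mean under 10 in oocytes and in every earlier embryo group, and 110 of these were under 10 in fibroblasts as well. Of the 286 genes read in blastocysts, 135 had a mean of 10 or more in oocytes, 235 in scNT morulae and 79 in fibroblasts, and 40 were under 10 in oocytes and every earlier embryo group. For being under 10 in several groups at once, no share over all genes tested was taken. Low levels favour such counts, and most genes of both sets were low. Without fibroblasts replicate 3, which correlated with the other fibroblast libraries at r = 0.850 to 0.865 while those correlated with each other at 0.977 to 0.989, the fibroblast counts were 133 of 297 and 58 of 286. In IVF material, where 66.9% of the genes tested were called in either direction, 245 of the 297 and 230 of the 286 were called in the same direction as in scNT.

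The pair of genes with the largest rise were close to absent from every embryo stage and from fibroblasts. ENSBTAG00000017020 had 6638.5, 4865.6, 9958.0 and 13776.3 normalized reads in the derived-cell libraries and 0 in each of the 4 blastocyst libraries. The groups were fully apart, and the gene was at least 1955-fold higher in derived cells, taking 3 reads per library as the floor. Its fitted log2 fold change was 12.99 with a standard error of 0.29 (limma, adjusted p = 2.36e-10), a value that depends on the pseudocount. Outside derived cells its highest value was 100.3 in IVF 8-cell replicate 2.

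ENSBTAG00000013950 had 7733.8, 5414.1, 4824.5 and 6361.2 normalized reads in derived cells and 0, 0, 1.5 and 1.3 in blastocysts. Only 2 reads came from blastocysts, against 25673 from derived cells, which gave a depth-adjusted ratio of 8312 with a 95% exact interval of 2301 to 68635 that covers counting error only. The fitted log2 fold change was 11.92 with a standard error of 0.33 (limma, adjusted p = 5.76e-10). In IVF material the gene averaged 2981 ± 1717 in derived cells and 0 in blastocysts (SD, n = 4 each), and in fibroblasts it averaged 0.2.

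The pair of genes with the largest fall were highest in morulae and blastocysts. ENSBTAG00000016748 had 0, 0.9, 0 and 0 normalized reads in derived cells and 10756.8, 7121.9, 8152.0 and 9833.7 in blastocysts. A single read was found in the 4 derived-cell libraries together. The depth-adjusted ratio of blastocysts over derived cells was 37295, with a 95% exact interval of 6693 to 1.47e+06. The fitted log2 fold change was -12.88 with a standard error of 0.25 (limma, adjusted p = 9.20e-11). The gene averaged 2.2 in oocytes, 26.2 ± 45.4 in scNT 8-cell embryos (SD, n = 4), 6110 ± 615 in scNT morulae (SD, n = 3) and 0.3 in fibroblasts. The scNT 8-cell mean came mostly from replicate 2, at 94.3. In IVF 8-cell embryos the gene had 366.6, 336.3, 320.4 and 3.2 normalized reads.

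ENSBTAG00000039346 had 0.9, 6.4, 5.9 and 1.9 normalized reads in derived cells and 8871.0, 6719.3, 7209.5 and 8887.1 in blastocysts. Every derived-cell library lay far below every blastocyst library, with a fitted log2 fold change of -10.91 and a standard error of 0.41 (limma, adjusted p = 1.87e-08). It averaged 2.5 ± 2.4 in scNT 8-cell embryos (SD, n = 4) and 2970 ± 469 in scNT morulae (SD, n = 3). Both genes were thus near 0 in oocytes, high in morulae and blastocysts and near 0 again in derived cells.

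**Figure D2:**
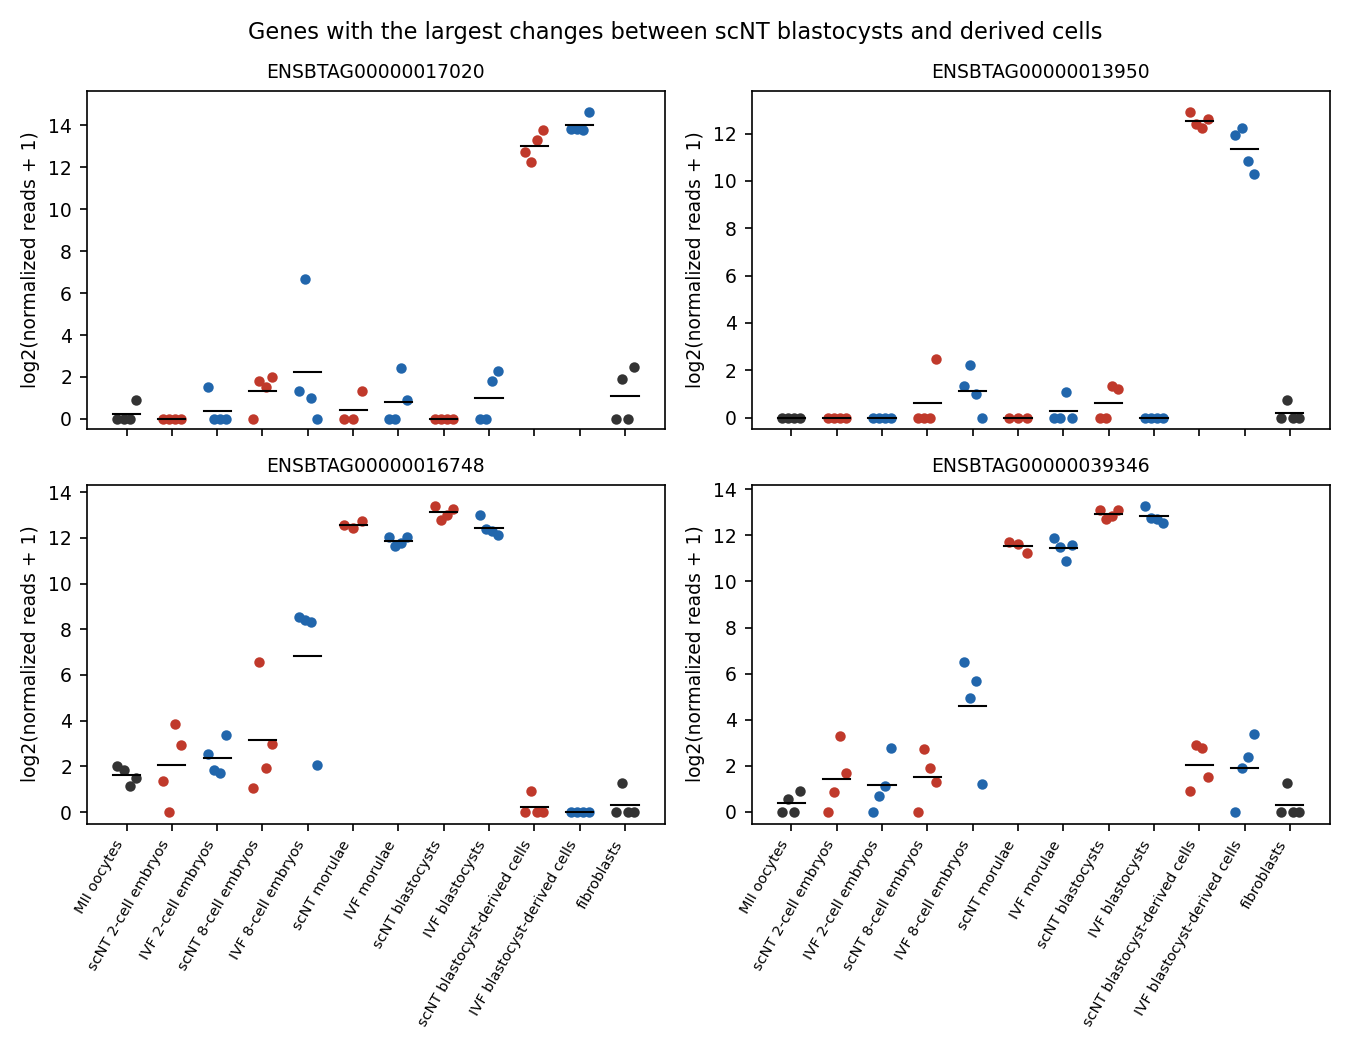
Levels of the 4 genes in each library of all 12 groups, log2(normalized reads + 1), with a point per library and a line at the mean of the group. The upper genes are high in derived cells of both methods, where ENSBTAG00000017020 reaches 13776.3 in scNT, and the lower genes are high in morulae and blastocysts of both methods.

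The genes higher at least 4-fold in derived cells were at their lowest in scNT blastocysts among the 12 groups of the series. The median over the 1594 genes of the group level, log2(mean + 1), was 7.48 in derived cells and 3.69 in scNT blastocysts. It was 4.79 in oocytes, 4.91 in scNT 2-cell embryos, 5.39 in scNT 8-cell embryos, 4.37 in scNT morulae and 6.77 in fibroblasts. In IVF material, which took no part in choosing these genes, it was 7.47 in derived cells and 4.22 in blastocysts. The position of scNT blastocysts at the low end follows in part from the choice, since that group's low values selected the genes.

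The same choice bears on IVF blastocysts, whose mean levels correlated with those of scNT blastocysts at r = 0.98 across genes, with 94.2% of genes within 2-fold. Values that set IVF blastocysts against earlier stages are therefore a description, and nothing is read from their excess over all genes. Of the 1594 genes, 477 (29.9%) had a level at least 4-fold lower in IVF blastocysts than in IVF 8-cell embryos and 98 (6.15%) at least 4-fold higher. Over all genes tested these were 1609 (12.6%) and 1807 (14.1%). Against oocytes, 427 of the 1594 (26.8%) were at least 4-fold lower in IVF blastocysts and 267 (16.8%) at least 4-fold higher, where all genes tested gave 13.9% and 23.4%.

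The genes lower at least 4-fold in derived cells were chosen in part for high values in scNT blastocysts, which IVF blastocysts resemble, and their levels are likewise a description. Their median level was 3.12 in derived cells and 7.01 in scNT blastocysts. It was 5.22 in oocytes, 4.87 in scNT 2-cell embryos, 5.57 in scNT 8-cell embryos, 7.03 in scNT morulae and 3.89 in fibroblasts. Of the 1219 genes, 637 (52.3%) were at least 4-fold higher in IVF blastocysts than in oocytes and 326 (26.7%) at least 4-fold higher in IVF morulae than in IVF 8-cell embryos. Over all genes tested these shares were 23.4% and 5.08%. From IVF morulae to IVF blastocysts 126 (10.3%) were at least 4-fold higher and 79 (6.48%) at least 4-fold lower. All genes tested gave 4.11% and 4.90% for these.

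**Figure D3:**
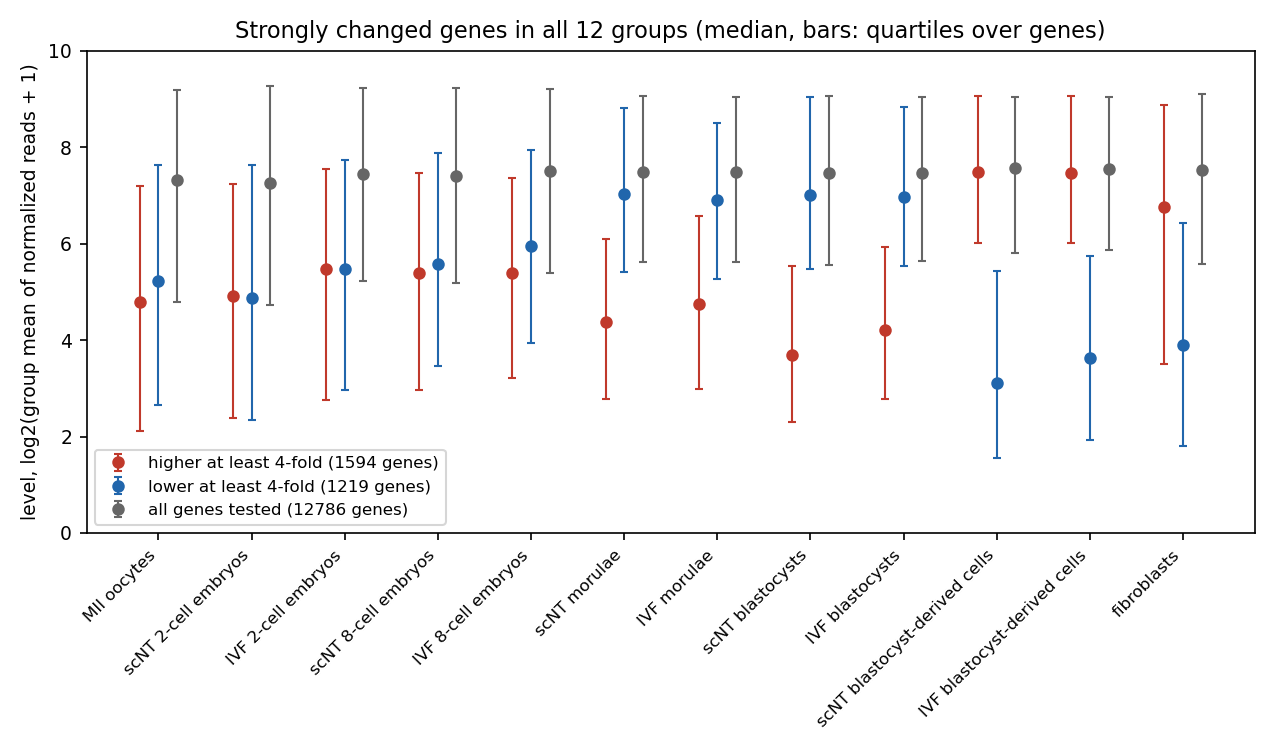
Median level over genes, log2(group mean of normalized reads + 1), in the 12 groups (x axis) for the 1594 genes higher at least 4-fold, the 1219 genes lower at least 4-fold and all 12786 genes tested; bars span the quartiles over genes. The lower genes stand near 7 in morulae and blastocysts of both methods, the higher genes at 7.48 in scNT derived cells, 3.69 in scNT blastocysts and 6.77 in fibroblasts.

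Most genes higher in derived cells were read in fibroblasts, the kind of cell that gave the nuclei, though a smaller share than of all genes. Of the 1594 higher genes, 1198 (75.2%) had a mean of 10 or more in fibroblasts, as did 683 (56.0%) of the 1219 lower genes and 11288 (88.3%) of all genes tested. Without fibroblasts replicate 3 the first pair of counts were 1127 and 584. Among the 1594 higher genes, 314 (19.7%) were read in fibroblasts and not in oocytes and 125 (7.84%) in oocytes and not in fibroblasts. Both held 884 (55.5%) and neither 271 (17.0%). Among the 1219 lower genes, 138 (11.3%) were read in fibroblasts and not in oocytes and 269 (22.1%) in oocytes and not in fibroblasts. Both held 545 (44.7%) and neither 267 (21.9%). Of all genes tested, 9.55% were read in fibroblasts only, 5.16% in oocytes only, 78.7% in both and 6.55% in neither. Without fibroblasts replicate 3, 297 of the higher and 111 of the lower genes were read in fibroblasts only. In oocytes only were 179 of the higher and 341 of the lower genes, and 879 of the 12786 genes tested.

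Derived cells resembled fibroblasts more than blastocysts did by 2 measures, neither of which is a test. Across the 12786 genes the mean log2 levels of derived cells correlated with those of fibroblasts at r = 0.72, and those of blastocysts at r = 0.59. This is a description across genes, which share library preparation and scaling. Of all genes, 62.6% were within 2-fold of fibroblasts in derived cells and 48.8% in blastocysts. Without fibroblasts replicate 3 the derived cells had r = 0.70 and 61.1%. The order did not hold in each set of genes. Without that library, r with fibroblasts within the 1594 higher genes was 0.40 for derived cells and 0.47 for blastocysts. Within the 1219 lower genes it was 0.60 and 0.44. Derived cells of both methods were much more alike, at r = 0.98 with 95.5% of genes within 2-fold. Derived cells and blastocysts of scNT origin had r = 0.68 with 58.0%, and scNT morulae stood nearer to scNT blastocysts (r = 0.89) than to derived cells (r = 0.62). Of the 1594 higher genes, 455 (28.5%) were within 2-fold of the fibroblast level in derived cells, 591 were at least 4-fold above it and 188 at least 4-fold below it.

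Genes higher in fibroblasts than in IVF blastocysts were mostly higher in derived cells, and genes lower in fibroblasts than in IVF blastocysts mostly lower. These libraries are outside the comparison, but the lists were chosen as much by the levels in IVF blastocysts as by those in fibroblasts. Since IVF and scNT blastocysts have nearly the same profile, part of the direction follows from that choice. Fibroblasts were at least 4-fold higher in 1677 genes (12.9% of those tested), of which 1323 passed the filter here. In scNT derived cells against scNT blastocysts 1042 of these 1323 (78.8%) were called higher and 79 (5.97%) lower, with a median log2 fold change of 2.07. Of all genes tested, 32.9% were called higher and 34.1% lower, with a median of -0.03. The mean log2 level of the list was 5.94 ± 0.19 in derived cells and 4.14 ± 0.096 in scNT blastocysts, against 8.30 ± 0.40 in fibroblasts (SD, n = 4 each). Genes lower at least 4-fold in fibroblasts than in IVF blastocysts numbered 1975 (15.2%), and 1789 passed the filter. Of these, 266 (14.9%) were called higher and 1225 (68.5%) lower in derived cells, with a median of -1.69. Their mean log2 level was 5.44 ± 0.096 in derived cells and 7.30 ± 0.20 in scNT blastocysts, against 3.24 ± 0.32 in fibroblasts (SD, n = 4 each). In both lists the mean of the derived cells lay between those of scNT blastocysts and fibroblasts, and so did those of other groups. The first list had 5.81 ± 0.43 in scNT 8-cell embryos, 5.80 ± 0.33 in IVF 8-cell embryos and 5.22 ± 0.20 in oocytes, and the second had 5.43 ± 0.12 in oocytes (SD, n = 4 each). Without fibroblasts replicate 3, 1090 of 1407 tested were higher in the first list and 1288 of 1910 lower in the second, with medians of 2.00 and -1.64.

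For genes that differed between IVF blastocysts and IVF morulae the calls were divided between both directions. Of 511 genes higher at least 4-fold in IVF blastocysts than in IVF morulae (3.83% of those tested), 498 were tested, 151 (30.3%) were called higher and 210 (42.2%) lower in scNT derived cells, and 137 were not called. Over all genes tested the shares called higher and lower were 32.9% and 34.1%. The median log2 fold change was -0.28, and 0.005 with equal library totals, so that its sign depended on the scaling. The mean log2 level of the list was 7.44 ± 0.072 in derived cells and 8.12 ± 0.19 in scNT blastocysts, against 5.15 ± 0.60 in scNT morulae (SD, n = 4, 4 and 3). Of 1280 genes lower at least 4-fold in IVF blastocysts than in IVF morulae (9.59%), 658 did not pass the filter. Of the 622 that did, 319 (51.3%) were called higher and 134 (21.5%) lower, with a median of 0.89. Passing required a value of 10 in 4 libraries, which favours genes high in derived cells, and with no filter the median was -0.28. The mean log2 level of the whole list was 3.32 ± 0.099 in derived cells and 3.30 ± 0.29 in scNT blastocysts, against 5.76 ± 0.46 in scNT morulae (SD, n = 4, 4 and 3). Mean and unfiltered median thus differ in sign, and the list as a whole stayed low in both groups.

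The same step in IVF material, which shares no library with the scNT step, moved the same genes. Of the 1594 higher genes, 1529 were tested in IVF, 1475 were called higher there and 1 lower, where 66.9% of 13099 genes were called in either direction. Their median log2 fold change was 3.30 in scNT, by which they were chosen, and 2.96 in IVF. Of the 1219 lower genes, 1138 were tested in IVF, 1110 were called lower and 0 higher, with medians of -3.44 in scNT and -3.18 in IVF. Seen from the IVF side, 1468 genes (11.2% of those tested) were higher at least 4-fold in IVF derived cells than in IVF blastocysts, and 1384 of them passed the scNT filter. In scNT 1367 of these were called higher and 0 lower. Of the 1268 genes (9.68%) lower at least 4-fold in IVF derived cells, 1047 passed, 1023 were called lower and 1 higher. Across the 12526 genes tested in both, the fold changes correlated at r = 0.95, a description across genes.

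**Figure D4:**
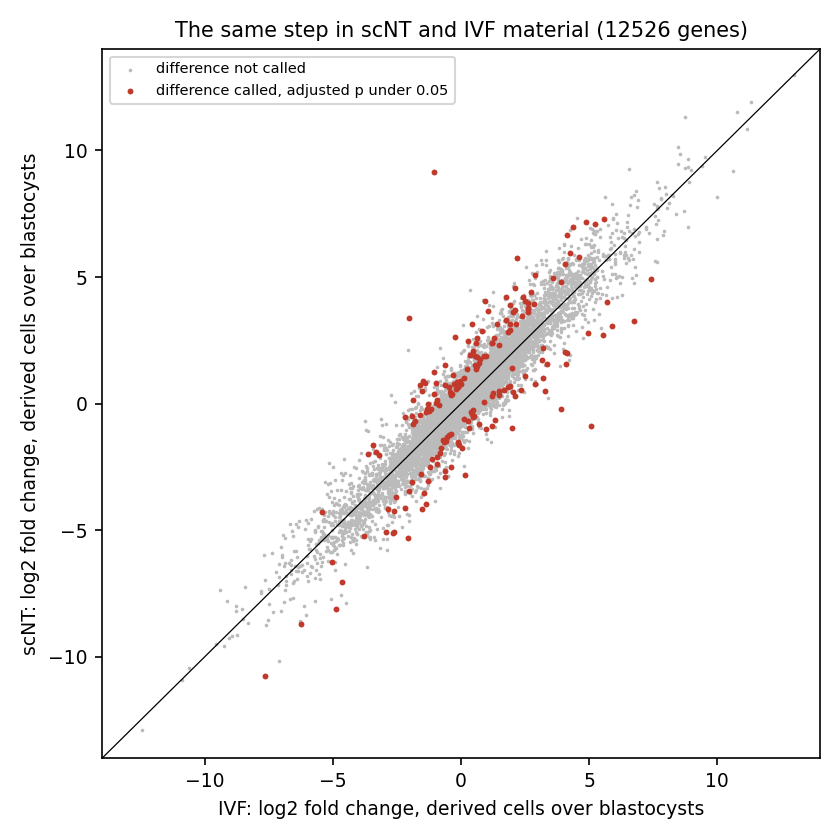
Log2 fold change of derived cells over blastocysts in scNT material (y axis) against that in IVF material (x axis) for the 12526 genes tested in both, with the line of equality. Red points are genes whose scNT and IVF steps differed at an adjusted p under 0.05; most genes lie along the line, and a red point at the upper left stands far above it.

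The difference between the steps, tested as an interaction in 16 libraries, was called for 208 of 13896 genes (1.50%), of which 115 were higher (0.828%) and 93 lower (0.669%) for scNT. DESeq2 on the recovered reads called 412 genes and edgeR 167, and an unadjusted p under 0.05 was reached by 1873 genes with limma. A gene that was not called is not shown to take the same step after scNT and after IVF. The scNT nuclei came from a Brahma Spanish cross bull and the IVF semen from a Holstein bull. Method, genotype and the sex of the embryos thus cannot be told apart in these differences. The median difference on the log2 scale was 1.55 among the higher genes and -1.78 among the lower, and 40 and 39 of them differed at least 4-fold. The steps themselves were called in opposite directions for 11 of the higher and 8 of the lower genes.

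Genes with a different step could differ between the methods in blastocysts, in derived cells or in both. Among the 115 higher genes, scNT and IVF libraries did not overlap in blastocysts alone for 66, in derived cells alone for 21 and in both for 22. Among the 93 lower genes these numbers were 36, 33 and 19. The interaction on these same libraries chose the genes, and such counts over all genes tested were not taken. Nothing is read from the split between stages. The number of genes called depended on the libraries used. With 1 library left out it was 93 to 215, against 208 with all libraries. Only without scNT derived cells replicate 2 did it rise. The largest falls were to 93 without scNT blastocysts replicate 1, 106 without IVF blastocysts replicate 2 and 119 without scNT derived cells replicate 3. Next were 120 without scNT blastocysts replicate 4 and 125 and 128 without IVF blastocysts replicates 3 and 4. Without IVF derived cells replicate 1 it was 134. The number higher also fell to 73 without scNT derived cells replicate 1, and the number lower to 56 without scNT blastocysts replicate 3. With equal library totals the split was 285 higher and 61 lower, as the median difference of all genes moved from 0.005 to 0.17.

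The strongest of these differences was close to an on and off pattern. ENSBTAG00000000198 had 5664.4, 1928.4, 3039.0 and 1898.8 normalized reads in scNT derived cells and 3.3, 6.2, 4.6 and 2.5 in scNT blastocysts. In IVF material it had 4.5, 3.7, 13.7 and 15.1 in derived cells and 9.3, 16.3, 27.9 and 20.6 in blastocysts. All 4 scNT derived-cell libraries stood far above every other library of the 4 groups, and the steps differed by 10.20 on the log2 scale with a standard error of 0.64 (limma, adjusted p = 3.30e-08). The gene averaged 10.8 ± 6.7 in scNT morulae (SD, n = 3) and was listed at 0 in every fibroblast library.

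ENSBTAG00000022971 followed the same pattern at a lower level. It had 1443.2, 918.7, 810.5 and 515.0 normalized reads in scNT derived cells and 0, 0, 0 and 1.3 in scNT blastocysts. In IVF material it had 2.3, 0.9, 4.2 and 3.5 in derived cells and 7.4, 4.1, 1.3 and 5.6 in blastocysts. The scNT derived cells alone held the transcript at a high level among these 4 groups. The depth-adjusted ratio of scNT derived cells over scNT blastocysts, where 1 read was found, was 2532 with a 95% exact interval of 454 to 100022, and the steps differed by 9.99 with a standard error of 0.68 (limma, adjusted p = 7.28e-08). It too was listed at 0 in every fibroblast library.

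Among the genes with a lower scNT step, ENSBTAG00000000897 had the smallest adjusted p. It had 429.5, 496.1, 583.8 and 471.1 normalized reads in scNT derived cells and 6040.5, 4892.0, 5008.6 and 6067.4 in scNT blastocysts. In IVF material it had 1283.8, 1090.5, 1192.8 and 1132.3 in derived cells and 4555.3, 4710.5, 5184.8 and 4594.2 in blastocysts. The gene was lower in derived cells of both methods, and further down after scNT, with a difference of -1.45 and a standard error of 0.16 (limma, adjusted p = 0.000120). It averaged 9126 ± 1364 in oocytes (SD, n = 4).

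ENSBTAG00000010716 moved in the IVF step and was not called in the scNT step. It had 19.8, 8.3, 56.4 and 5.7 normalized reads in scNT derived cells and 29.8, 31.0, 26.1 and 31.8 in scNT blastocysts, which overlapped (log2 fold change -0.89, limma adjusted p = 0.188). The overlap came from scNT derived cells replicate 3 alone, at 56.4, as the other derived-cell libraries lay below every scNT blastocyst library. In IVF material it had 204.8, 172.6, 433.6 and 436.5 in derived cells and 7.4, 4.1, 7.6 and 13.1 in blastocysts. The steps differed by -5.97 with a standard error of 0.74 (limma, adjusted p = 0.000425). Both the derived cells and the blastocysts of the 2 methods were apart, in opposite directions.

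**Figure D5:**
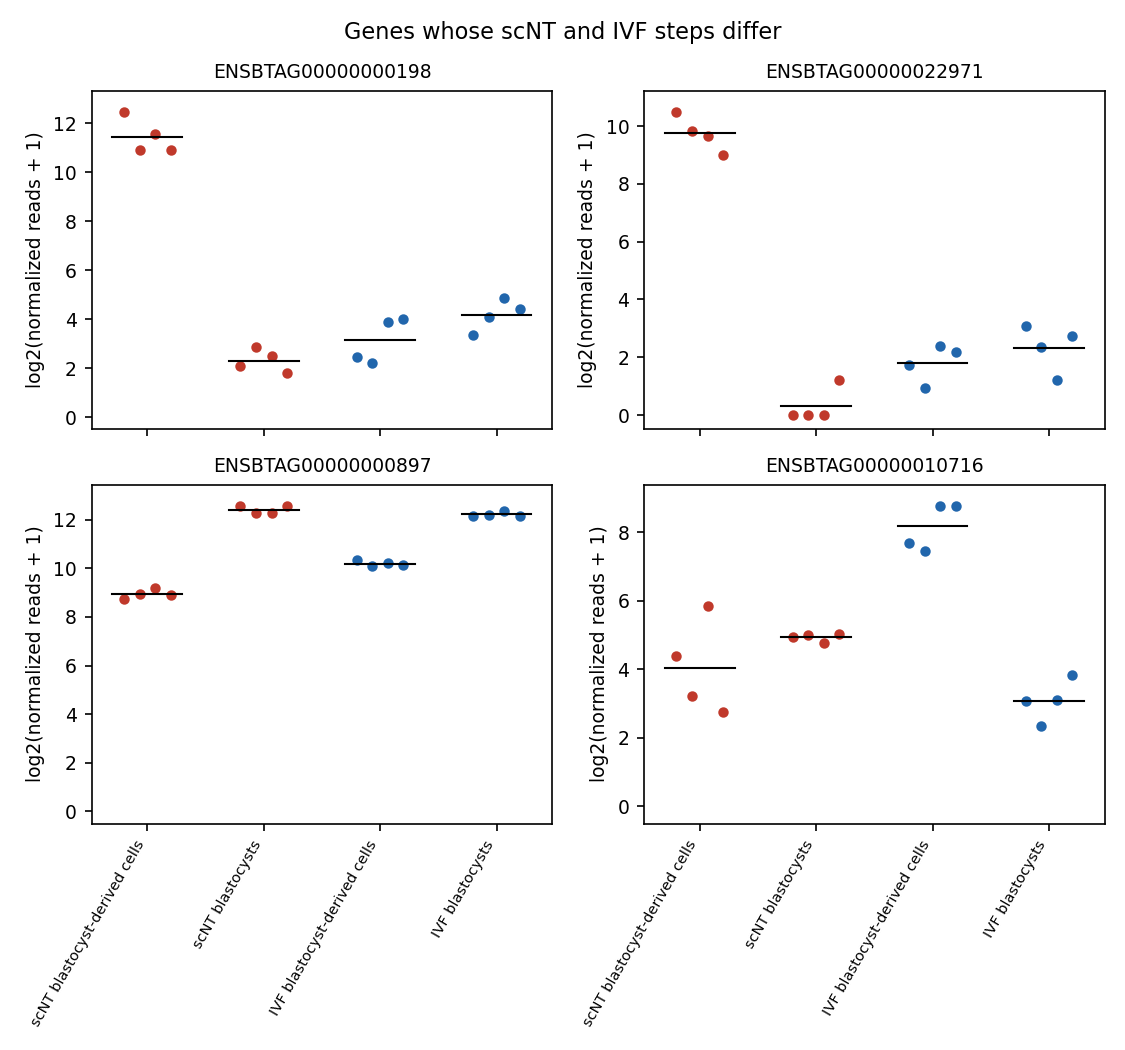
Levels of the 4 genes in each library of scNT and IVF derived cells and blastocysts, log2(normalized reads + 1), with a point per library and a line at the mean of the group. The upper genes are high in scNT derived cells and low in the other 3 groups, and ENSBTAG00000010716 is high in IVF derived cells, at 172.6 to 436.5 normalized reads.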

How the data were processed

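Large RNA was made into libraries by a kit for low input with repeated PCR, per the labels' protocols. The sources used here do not say whether molecular identifiers were used, so intervals and floors cover counting error only. The submitters' processing notes name build UMD3.1 and the tools STAR, DESeq2, FastQC and MultiQC, without versions or roles. The deposited signal was 1 normalized read value per gene and library, for 20526 genes in 47 libraries of 12 groups. All columns were matched to samples by title. In the 16 libraries of blastocysts and derived cells the values were whole multiples of a step. With a tolerance of 0.1, at least 99.976% were whole reads, against 20.0% by chance. The labels disagree on how many pools each stage had.

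Genes with a value of 10 or more in at least 4 of the libraries fitted were tested with limma 3.58.1 in R 4.3.3 (trend and robust options, log2(value + 1), two-sided, only the groups compared). Adjusted p-values are Benjamini-Hochberg values over all genes tested, called under 0.05. Fold changes on this scale understate changes of low genes. A count model was not the main test because the values are normalized. On the recovered reads, edgeR 4.0.16 called 8509 genes and DESeq2 1.42.0 called 8488 between scNT derived cells and blastocysts. The fit was tested on simulated data.

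Of the identifiers, 0 matched the RefSeq table (ARS-UCD2.0), so that 0 of the 40 lists of gene symbols, cell type markers included, could be used. Lists came from IVF and fibroblast libraries instead, at least 4-fold and called by the same fit. At most 2 identifiers per direction are named: those with the largest fold change among called genes whose groups did not overlap and whose mean was at least 50 or, for the difference between steps, the smallest adjusted p at that mean. The members, lists and tests were chosen with earlier results of these data known. The description of fibroblast lists without fibroblasts replicate 3 was chosen after seeing the data. The alternatives changed the pseudocount, the filter, the scaling, the robust option, the tool, the replicate block and the libraries used.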

Additional observations from a re-analysis of the deposited data

Results flagged for a closer look

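A library was set apart where its gap to the nearest of the others in its group of 4 exceeded Dixon's 95% critical value. Chance does this in about 1 in 20 groups, and 44 groups were examined. The mean log2 level of the genes higher at least 4-fold in IVF derived cells than in IVF blastocysts was 7.30 in scNT derived cells replicate 2 and at least 7.55 in the other scNT derived-cell libraries. ENSBTAG00000016748 had 0.9 normalized reads, a single read, in 1 scNT derived-cell library and 0 in the others. ENSBTAG00000022971 had 1.3 normalized reads, also a single read, in 1 scNT blastocyst library and 0 in the others. Where all other libraries are at 0, any read sets a library apart. The rate of 1 in 20 does not apply to these single reads, and nothing is read from them.

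The scNT step differed from the IVF step, by the interaction test, in the 4 genes named for it. The difference on the log2 scale was 10.20 for ENSBTAG00000000198, 9.99 for ENSBTAG00000022971, -1.45 for ENSBTAG00000000897 and -5.97 for ENSBTAG00000010716 (limma).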

How the results depend on the processing

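The numbers of genes called between scNT derived cells and blastocysts stayed within 1.5 times the reported counts under each alternative run, at 6819 to 10115, and at 7962 to 8817 with 1 library left out. The genes called and at least 4-fold apart, reported as 1594 higher and 1219 lower, varied more. They numbered 1053 and 700 with a mean of at least 50 required. With a pseudocount of 10 they were 1161 and 825, and with no filter 1918 and 1868. The interaction between method and step was also less stable. Its number called was 346 with equal library totals (285 higher and 61 lower) and 412 with DESeq2 (232 higher and 180 lower), and it was 167 with edgeR. With 1 library left out, 93 to 215 genes were called, 54 to 123 of them higher and 39 to 92 lower; the cause was not tested. Of the 208 genes, 175 were also called with equal totals and 189 with DESeq2. Libraries with the same number did not deviate together (r = 0.10, 0.04, 0.02 and -0.07 for the 4 scNT pairs), so the numbers were not taken as pairs. With the replicate block 8435 genes were called in the scNT step, 4150 higher and 4285 lower, and 192 in the difference, 107 higher and 85 lower. The 8 named genes kept their direction and their call under each alternative run in the comparison each was named for. The median of the genes lower in IVF blastocysts than in IVF morulae was 1.60 with a mean of at least 50 required, against 0.89.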
